A study of Mus musculus with 7 samples.

Results

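Inflammasome genes were followed in splenic CD45+CD11b+ myeloid cells after allogeneic hematopoietic cell transplantation (allo-HCT) and treatment with a ROCK1/2-inhibitor. They comprised 10 of the 19494 genes named on the array, the sensors Aim2, Nlrp3, Nlrc4 and Nlrp1b, the adaptor Pycard, the caspases Casp1 and Casp4, the pore-forming protein gene Gsdmd and the cytokine genes Il1b and Il18. All 10 were measured, each by 1 transcript cluster, the set of probes that reads 1 gene. The genes were chosen by their role with the results of the same comparison already known, so their levels and calls below are a description of these 7 arrays and no independent test of the pathway.

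An inflammasome is a protein complex of the cytosol. A sensor that meets its trigger, such as double-stranded DNA for AIM2 or many forms of cell stress for NLRP3, gathers the adaptor ASC, which Pycard encodes, and ASC gathers and activates caspase-1. Caspase-1 cuts the precursors of interleukin-1beta and interleukin-18 into their active forms and cuts gasdermin D, whose free part makes pores in the cell membrane and can cause pyroptosis, a lytic form of cell death. Myeloid cells are a main site of this pathway, and several of its genes are transcribed more after Toll-like receptor or interferon signals, a step called priming. The array reads messenger RNA and shows neither assembly of the complex nor cutting of its substrates.

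The ROCK1/2-inhibitor group had 4 mice (R1 to R4) and the vehicle group had 3 mice (V2 to V4), each with 1 Clariom S Mouse array, a chip that holds mostly 1 transcript cluster per gene. Both groups were labelled Wildtype, and by the study's methods BALB/cAnN recipients were irradiated with 2 doses of 5 Gy and received bone marrow and T cells of C57BL6/N donors. Intraperitoneal Y-27632, the inhibitor, was injected at 8 mg/kg on days 4 to 13, with PBS as the vehicle. Cells were sorted from the spleen on day 14. The gate as labelled holds no marker of donor or host origin. One free-text label described all arrays as reticular cells rich in CXCL12, a stromal cell type, while the cell type and tissue labels gave CD11b+ CD45+ spleen cells.

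The genes of the sort gate were bright and the stromal genes dim. Itgam, which encodes CD11b, averaged 8.96 ± 0.27 log2 intensity in inhibitor mice and 9.38 ± 0.29 in vehicle mice, and Ptprc, which encodes CD45, averaged 9.39 ± 0.20 and 9.09 ± 0.76 in the same groups (SD, n = 4 and 3). The 5 measured stromal reticular genes averaged 2.08 to 2.21 in inhibitor mice and 1.90 to 2.13 in vehicle mice, close to the array medians of 2.14 to 2.19. Pairs of arrays correlated across transcript clusters at r = 0.953 to 0.971 within the inhibitor group, 0.966 to 0.972 within the vehicle group and 0.924 to 0.970 between the groups.

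Across the 10 genes, the sensor Aim2, the adaptor Pycard, the protease Casp1 and the cytokine Il1b rose with the inhibitor, and none fell. These 4 were higher at an adjusted p under 0.05 in limma's moderated test over all 22139 transcript clusters, with Benjamini-Hochberg adjustment. Nlrp3, Casp4 and Il18 were measured 0.70 to 0.78 higher on the log2 scale without passing that test, while Nlrc4, Nlrp1b and Gsdmd lay within 0.32 of no difference. Over all transcript clusters 2.23% were called in either direction and 1.06% were called higher. Because the same comparison was known when the genes were picked, nothing is read from these shares. A change in the number of cells of a type and a change in RNA per cell cannot be told apart in these bulk samples.

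**Figure D1:**
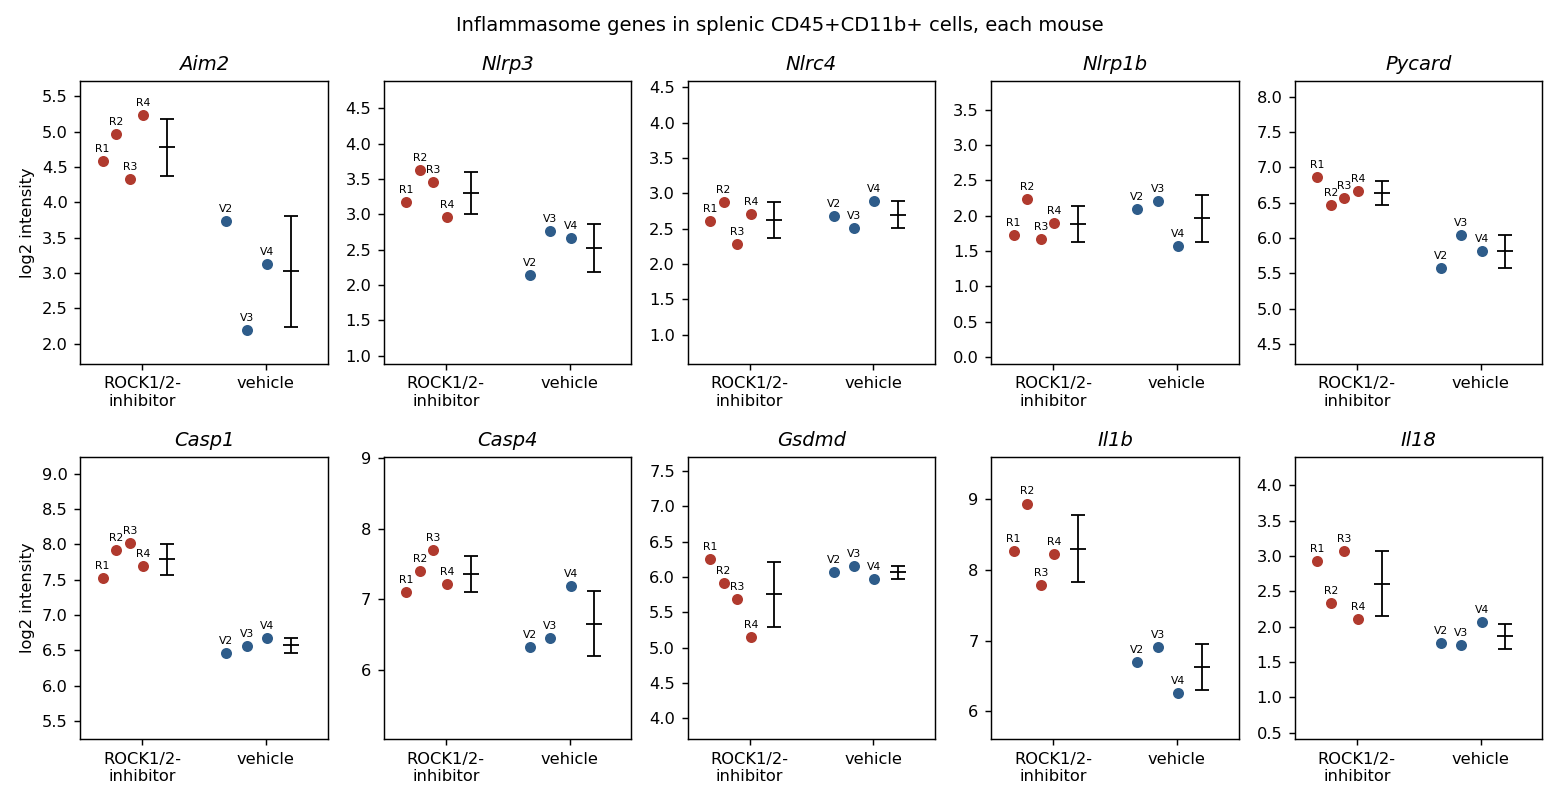
Log2 intensity (vertical axes, the same span in each panel) of the 10 inflammasome genes in each mouse, inhibitor mice R1 to R4 in red on the left and vehicle mice V2 to V4 in blue on the right, with bars for the mean and SD of each group. The red points lie above all blue points for Aim2, Nlrp3, Pycard, Casp1, Il1b and Il18, and the groups overlap for Nlrc4, Nlrp1b, Casp4 and Gsdmd.

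Sequence upstream of the genes is shown because 4 of them were higher together and because Casp4 lies directly beside Casp1. RefSeq's promoter table of GRCm38.p6 held a window for 9 of the 10 genes (12 windows in all, since some genes have more than 1 start). It held none for Gsdmd. The 250 bases before the start of transcription are printed 5′ to 3′ on the gene's own strand, and capitals mark a match to 1 of 5 short motifs searched on both strands.
Aim2 (chr1:173420354-173420603, plus strand): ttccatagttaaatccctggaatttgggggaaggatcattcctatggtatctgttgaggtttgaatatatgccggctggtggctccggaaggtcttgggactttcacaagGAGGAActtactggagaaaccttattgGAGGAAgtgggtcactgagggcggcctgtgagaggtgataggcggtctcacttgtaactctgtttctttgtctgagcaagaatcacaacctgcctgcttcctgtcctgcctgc
Pycard (chr7:127993868-127994117, minus strand): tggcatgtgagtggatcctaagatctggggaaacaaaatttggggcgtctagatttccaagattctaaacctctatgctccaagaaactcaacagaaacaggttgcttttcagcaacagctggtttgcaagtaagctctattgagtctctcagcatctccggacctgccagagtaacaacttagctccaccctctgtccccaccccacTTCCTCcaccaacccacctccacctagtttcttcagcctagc
Casp1 (chr9:5298267-5298516, plus strand): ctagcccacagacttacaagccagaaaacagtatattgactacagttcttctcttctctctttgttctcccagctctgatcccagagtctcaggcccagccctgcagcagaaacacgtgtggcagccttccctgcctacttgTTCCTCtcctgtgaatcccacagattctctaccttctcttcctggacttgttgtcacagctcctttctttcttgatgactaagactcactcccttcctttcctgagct
Casp4 (chr9:5308599-5308848, plus strand): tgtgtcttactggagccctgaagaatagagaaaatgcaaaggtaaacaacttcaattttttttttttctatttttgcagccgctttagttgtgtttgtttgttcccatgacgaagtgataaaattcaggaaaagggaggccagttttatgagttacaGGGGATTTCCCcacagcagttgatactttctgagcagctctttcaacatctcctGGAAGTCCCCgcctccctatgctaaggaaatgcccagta
Il1b (chr2:129371140-129371389, minus strand): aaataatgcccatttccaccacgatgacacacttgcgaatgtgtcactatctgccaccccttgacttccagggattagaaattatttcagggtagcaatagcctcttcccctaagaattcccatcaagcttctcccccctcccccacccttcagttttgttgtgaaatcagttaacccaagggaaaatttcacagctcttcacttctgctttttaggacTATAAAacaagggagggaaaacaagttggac

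The motifs were the core bound by PU.1, a transcription factor of myeloid cells (GAGGAA, in 23.3% of 32851 windows of the same length), the TATA box (TATAAA, in 12.4%), the NF-kB site (in 7.25%), the gamma-activated sequence (TTCNNNGAA, in 7.02%) and the interferon-stimulated response element (GAAA, any 2 bases, GAAA, in 2.98%). The capitals in the Aim2 window are PU.1 cores that begin at positions -140 and -113, counted from the start of transcription. The Pycard and Casp1 windows each had 1 PU.1 core, read on the opposite strand and printed as its complement. The Il1b window had a TATA box at position -31. The window of Casp4, which did not pass the test, had NF-kB matches that overlap at positions -93 and -92 and another at -39. Among the windows not printed, those of Nlrp3 had PU.1 cores at -220, -129 and -36 and an NF-kB match at -186. Nlrp1b had a PU.1 core at -96 and Il18 a TATA box at -175, and these genes did not pass the test either. Neither the interferon-stimulated response element nor the gamma-activated sequence matched in any of the 12 windows. A match is only a description of letters, and no match says only that these letters were not in the window.

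Of the 4 sensors, Aim2, which binds double-stranded DNA in the cytosol, rose, and Nlrp3 was higher in each inhibitor mouse than in any vehicle mouse without passing the test. Aim2 had 4.58, 4.96, 4.33 and 5.24 log2 intensity in R1, R2, R3 and R4, against 3.74, 2.19 and 3.13 in V2, V3 and V4. No inhibitor mouse overlapped with a vehicle mouse, the closest pair being R3 and V2 at 0.59 apart, and V3 was the lowest of all. Aim2 averaged 4.78 ± 0.40 in inhibitor mice and 3.02 ± 0.78 in vehicle mice (SD, n = 4 and 3), a log2 fold change of 1.76 ± 0.35 (SE; 95% interval 0.97 to 2.55) and a ratio of 3.38, with an adjusted p of 0.0417 (limma). Its signal stood at percentiles 81.8 to 88.8 of all transcript clusters on the inhibitor arrays and at percentiles 50.4 to 77.2 on the vehicle arrays. The value of V3, 2.19, was close to that array's median of 2.18, and the table holds no detection call, so the ratio is one of intensities that may include background. Without V3 the log2 fold change of Aim2 was 1.34 with an adjusted p of 0.0977 (limma).

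Nlrp3, the sensor of ion flux and membrane damage, had 3.17, 3.63, 3.46 and 2.96 log2 intensity in R1 to R4, against 2.14, 2.77 and 2.67 in V2 to V4. The groups did not overlap, but R4 and V3 were only 0.19 apart. The log2 fold change was 0.78 ± 0.22 (SE; 95% interval 0.29 to 1.27), with an adjusted p of 0.106 (limma). R2 was the highest and V2 the lowest of the 7 mice. The vehicle values of Nlrp3 lay at percentiles 47.9 to 64.9 of the arrays, where background may be part of the signal.

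Nlrc4, which answers bacterial flagellin and secretion-system proteins through the NAIP receptors, had 2.60, 2.88, 2.28 and 2.71 log2 intensity in R1 to R4, against 2.68, 2.51 and 2.89 in V2 to V4. The groups lay on top of each other, with a log2 fold change of -0.07 ± 0.18 (SE; 95% interval -0.48 to 0.33; adjusted p of 0.913, limma). The signal of Nlrc4 was modest, at percentiles 55.1 to 68.2 of the arrays. Nlrp1b, whose product responds to anthrax lethal factor in some mouse strains, had 1.73, 2.24, 1.67 and 1.89 log2 intensity in R1 to R4, against 2.09, 2.21 and 1.58 in V2 to V4. Its values also overlapped throughout, with a log2 fold change of -0.08 ± 0.21 (SE; 95% interval -0.55 to 0.39; adjusted p of 0.918, limma). Nlrp1b was dim, between percentiles 15.9 and 52.0 of the arrays, and it varies in sequence between mouse strains. Whether the probes read the alleles of both strains alike was not tested.

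Pycard, the adaptor through which AIM2 and NLRP3 reach caspase-1, rose by less than Aim2 on the log2 scale but with little spread among mice. Its log2 intensity was 6.86, 6.47, 6.57 and 6.66 in R1 to R4, against 5.58, 6.05 and 5.82 in V2 to V4. Each inhibitor mouse lay above each vehicle mouse, and R2 and V3 came closest, at 0.42 apart. The mean was 6.64 ± 0.17 in inhibitor mice and 5.81 ± 0.23 in vehicle mice, which gave a log2 fold change of 0.83 ± 0.17 (SE; 95% interval 0.44 to 1.21), a ratio of 1.77 and an adjusted p of 0.0443 (limma). Of the 4 called genes Pycard lay nearest the threshold.

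Casp1, which encodes the protease that matures interleukin-1beta and interleukin-18, had the strongest statistical difference of the 10 genes, at rank 43 of 22139 by p. It had 7.52, 7.92, 8.01 and 7.70 log2 intensity in R1 to R4, against 6.47, 6.57 and 6.68 in V2 to V4. The groups were separated by 0.84, more than the range within either group. Casp1 averaged 7.79 ± 0.22 in inhibitor mice and 6.57 ± 0.11 in vehicle mice (SD, n = 4 and 3), a log2 fold change of 1.22 ± 0.16 (SE; 95% interval 0.85 to 1.59), a ratio of 2.32 and an adjusted p of 0.0178 (limma).

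Casp4 encodes the mouse protease also known as caspase-11, which binds bacterial lipopolysaccharide in the cytosol and cuts gasdermin D without an ASC complex. Its log2 intensity was 7.11, 7.41, 7.71 and 7.22 in R1 to R4, against 6.33, 6.45 and 7.19 in V2 to V4. The overlap came from V4 alone, which lay above R1. The log2 fold change was 0.70 ± 0.24 (SE; 95% interval 0.17 to 1.24), with an adjusted p of 0.178 (limma). With V4 left out the log2 fold change of Casp4 was 0.97 with an adjusted p of 0.0544 (limma), against 0.54 and 0.481 with V2 left out.

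Gsdmd, whose product is the pore former cut by both caspases, was not higher with the inhibitor. It had 6.25, 5.91, 5.69 and 5.15 log2 intensity in R1 to R4, against 6.07, 6.16 and 5.98 in V2 to V4. R1 was the highest of the 7 mice and R4 the lowest, so the inhibitor mice spanned the whole vehicle group. The log2 fold change was -0.32 ± 0.24 (SE; 95% interval -0.85 to 0.22; adjusted p of 0.632, limma).

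Both cytokines cut by caspase-1 were measured higher in each inhibitor mouse, but with very different brightness and certainty. Il1b, the gene of interleukin-1beta, had 8.26, 8.94, 7.78 and 8.22 log2 intensity in R1 to R4, against 6.70, 6.91 and 6.26 in V2 to V4. The gap between the groups was 0.88, R2 being the highest mouse and V4 the lowest. Il1b rose to a mean of 8.30 ± 0.48 in inhibitor mice, against 6.62 ± 0.33 in vehicle mice (SD, n = 4 and 3), a log2 fold change of 1.68 ± 0.27 (SE; 95% interval 1.07 to 2.29), a ratio of 3.20 and an adjusted p of 0.0234 (limma).

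Il18, the gene of interleukin-18, had 2.93, 2.33, 3.06 and 2.10 log2 intensity in R1 to R4, against 1.77, 1.74 and 2.07 in V2 to V4. R4 and V4 were almost equal, at 0.034 apart, while R1 and R3 stood clear of the vehicle mice. The log2 fold change was 0.75 ± 0.25 (SE; 95% interval 0.19 to 1.30), with an adjusted p of 0.170 (limma). The vehicle values lay at percentiles 25.9 to 46.3 of the arrays and the inhibitor values at percentiles 46.3 to 70.6, so the measurement came from the dim part of the array.

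**Figure D2:**
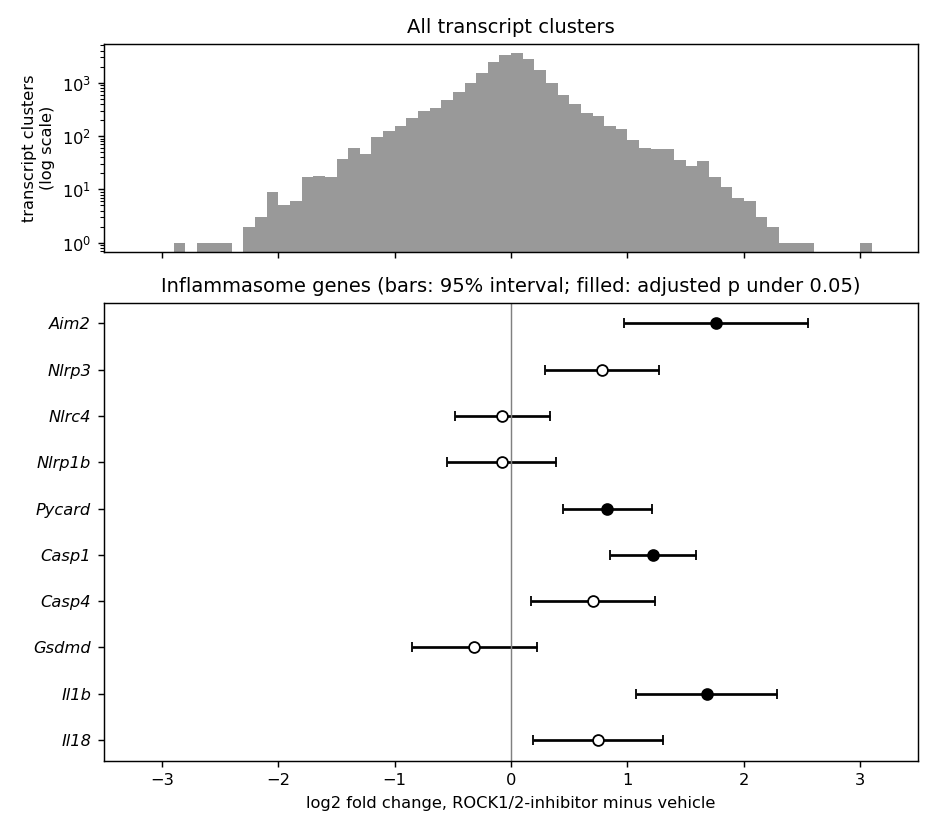
Log2 fold changes, ROCK1/2-inhibitor minus vehicle (shared horizontal axis). The upper panel counts all transcript clusters in bins of 0.1 on a log scale. The lower panel gives the 10 inflammasome genes with 95% intervals, filled where the adjusted p from limma was under 0.05: Aim2, Pycard, Casp1 and Il1b are filled at 1.76, 0.83, 1.22 and 1.68, and Nlrc4, Nlrp1b and Gsdmd have intervals that include 0.

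As a group, 4 of the 10 genes were called higher, 0 lower and 6 were not called. Their median log2 fold change was 0.76 (quartiles 0.12 and 1.12), beside a median of 0.0049 over all transcript clusters (quartiles -0.18 and 0.17). An unadjusted p under 0.05 was reached by 7 of the 10 genes and by 3379 of the 22139 transcript clusters. In 6 of the 10 genes all 4 inhibitor arrays lay above all 3 vehicle arrays, which held for 6.22% of all transcript clusters, and in 0 they lay below, which held for 7.03%.

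The mice of 1 group did not follow a single order across the genes. With each gene set against its vehicle mean, the median over the 10 genes was 0.80 in R1, 0.70 in R2, 0.99 in R3 and 0.50 in R4, against -0.05 in V2, 0.04 in V3 and 0.11 in V4. R2 was the highest inhibitor mouse for Nlrp3, Nlrc4, Nlrp1b and Il1b. R3 was the lowest inhibitor mouse for Aim2, Nlrc4, Nlrp1b and Il1b and yet the highest for Casp1, Casp4 and Il18. R4 had the lowest Nlrp3, Gsdmd and Il18 of its group and the highest Aim2, so no mouse was low or high throughout.

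**Figure D3:**
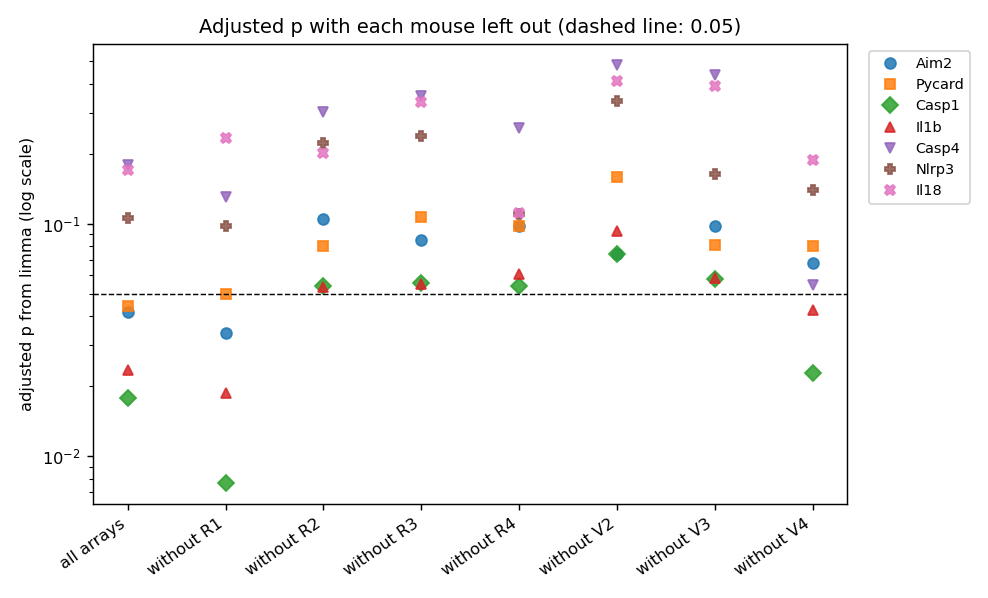
Adjusted p from limma (vertical axis, log scale) for 7 of the inflammasome genes in the fit of all 7 arrays and with each mouse left out in turn (horizontal axis); the dashed line marks 0.05. With all arrays Aim2, Pycard, Casp1 and Il1b lie below the line, and the calls of all 4 are lost when R2, R3, R4, V2 or V3 is left out.

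How far the 4 calls depended on single mice was examined by leaving out each array in turn. Without R1 all 4 genes were still called, and without V4 Casp1 and Il1b were. Without any of R2, R3, R4, V2 or V3, 0 of the 10 genes were called. The log2 fold changes stayed above 0 over these 7 fits. They lay between 1.34 (without V3) and 2.12 (without V2) for Aim2, 0.71 and 0.94 for Pycard, 1.14 and 1.31 for Casp1, and 1.47 and 1.85 for Il1b. The adjusted p from limma lay between 0.0338 and 0.105 for Aim2, 0.04998 and 0.159 for Pycard, 0.00770 and 0.0743 for Casp1, and 0.0188 and 0.0932 for Il1b. The number of all transcript clusters called also changed, being 494 with all arrays, 1035 without R1, 534 without V4, 34 without V3, 4 without R3 and 2 without R2, R4 or V2.

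Aim2 lies at 1 end of a row of interferon-inducible p200 genes, many of whose products share with AIM2 a DNA-binding HIN domain. In RefSeq's gene order the row on chromosome 1 had 13 genes, of which 9 were measured and 4 (Ifi206, Ifi203, Ifi202b and Ifi205) were not analysed here. Of the 9, which include Aim2, 6 rose, 0 fell, and all 9 were higher in each inhibitor mouse than in any vehicle mouse. Over all transcript clusters 1.06% were called higher and 6.22% had all inhibitor arrays above all vehicle arrays. Mndal had 7.24, 6.96, 7.47 and 7.07 log2 intensity in R1 to R4, against 5.00, 5.74 and 6.11 in V2 to V4, and a log2 fold change of 1.57 ± 0.26 (SE; adjusted p of 0.0251, limma). Ifi213 had 5.35, 5.90, 5.77 and 5.70 in R1 to R4, against 4.59, 4.57 and 4.33 in V2 to V4, and a log2 fold change of 1.18 ± 0.17 (SE; adjusted p of 0.0189, limma). In both genes the vehicle mice were all below the lowest inhibitor mouse, R2 for Mndal and R1 for Ifi213.

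Ifi207 rose by 2.01 and Ifi204 by 1.01 on the log2 scale (adjusted p of 0.0396 and 0.0402, limma). Ifi204 was not called with the replicate number as a block (adjusted p of 0.0537). With 1 array left out, Mndal, Ifi213, Ifi207 and Ifi204 were called without R1 and without V4, and in none of the other 5 fits. Ifi209, named after its values were seen, rose by 1.25 (adjusted p of 0.0480, limma). Ifi208, Ifi211 and Ifi214 had log2 fold changes of 1.13, 1.56 and 0.43 that did not pass the test (adjusted p of 0.101, 0.0772 and 0.219, limma). The list of p200 genes, which leaves out Aim2, had 8 of 12 genes measured and a median log2 fold change of 1.21, beside 0.0049 over all transcript clusters. The p200 genes are near-identical copies in places and may share probes, so their values are not separate from one another. Aim2 and the p200 genes were measured on the same arrays, and the list was chosen with their values known.

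**Figure D4:**
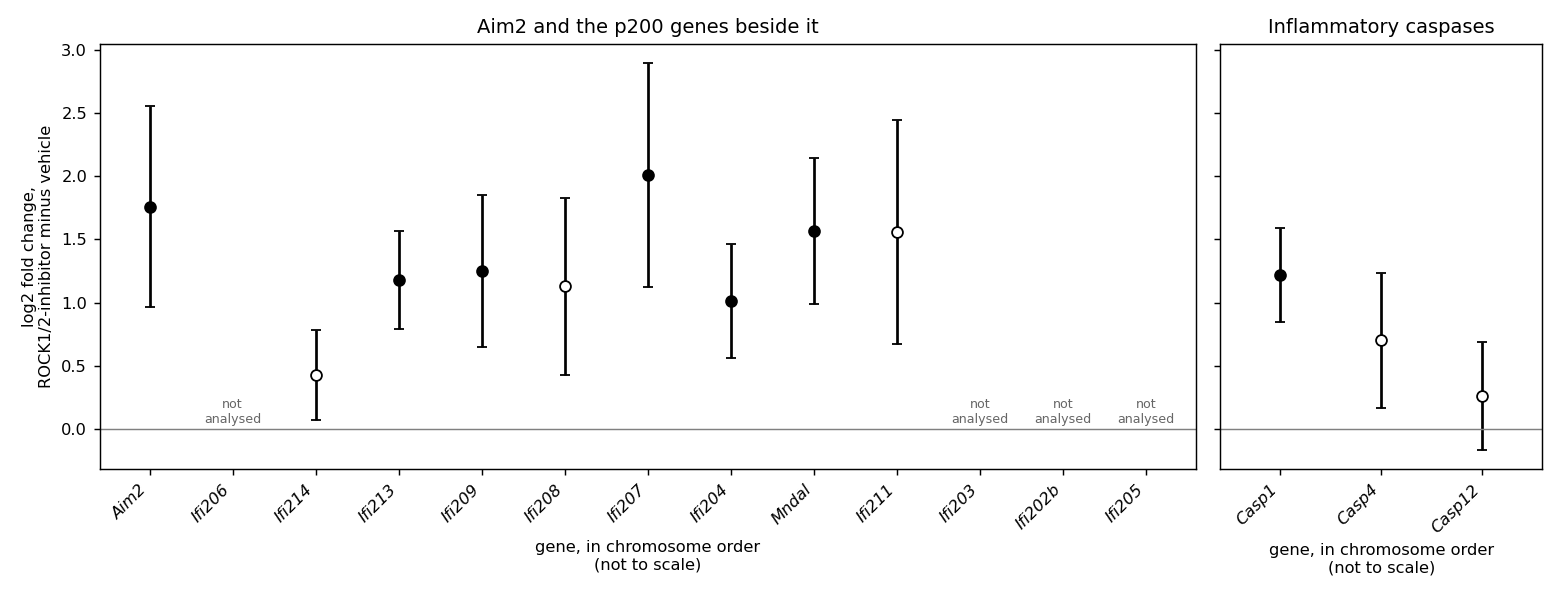
Log2 fold changes, ROCK1/2-inhibitor minus vehicle (vertical axis), with 95% intervals for Aim2 and the p200 genes beside it (left) and for the inflammatory caspases (right), in chromosome order and not to scale; filled points had an adjusted p from limma under 0.05. All 9 measured genes of the left panel lie above 0, and in the right panel Casp1, Casp4 and Casp12 stand at 1.22, 0.70 and 0.26.

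Casp1 and Casp4 lie side by side on chromosome 9, with Casp12, a related caspase, next to them. Of these 3 neighbours only Casp1 was called. For Casp12 the log2 fold change was 0.26 (adjusted p of 0.613, limma), with 1.80, 2.33, 1.87 and 1.64 log2 intensity in R1 to R4, against 1.80, 1.67 and 1.47 in V2 to V4. Its levels were below the array median in all mice but R2.

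Outside these genes and the p200 row, 3 genes of the other pathway lists were called, namely Gsdme, Ly96 and Tlr7. Over all transcript clusters 2.23% were called in either direction. These lists are short and were chosen with earlier results known, so nothing is read from their counts of calls. With 1 array left out, all 3 were called without R1 and without V4, Ly96 also without V3, and none of them in the other 4 fits. The adjusted p over these 7 fits lay between 0.00863 and 0.111 for Gsdme, 0.00643 and 0.0686 for Ly96, and 0.00546 and 0.0851 for Tlr7 (limma). Of 12 measured other sensors and NAIP receptors 0 were called, with a median log2 fold change of 0.09. Naip2 and Naip5, which pass the signal of bacterial proteins to NLRC4, had log2 fold changes of 0.42 and 0.30 (adjusted p of 0.483 and 0.467, limma), and Card9 and Nod2, an adaptor and a sensor of microbial products, had -0.56 and -0.51 (adjusted p of 0.351 and 0.409). Naip1 was not analysed here. Of 18 measured regulators of inflammasomes 0 were called, with a median of 0.04. Nek7, a kinase that NLRP3 needs for assembly, had 5.71, 5.76, 5.37 and 5.60 log2 intensity in R1 to R4, against 4.89, 4.83 and 5.39 in V2 to V4, so that V4 lay just above R3 (log2 fold change 0.57, adjusted p of 0.160, limma). The transcription factor gene Nfe2l2 and the kinase genes Syk and Mark4 had log2 fold changes of -0.76, -0.89 and -0.85 (adjusted p of 0.0663, 0.0795 and 0.125, limma).

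Among 10 measured genes of pyroptosis and related cell death, Gsdme, which encodes a pore former of the gasdermin family, fell. The other 9 were not called, and the list median was -0.03, while 2.23% of all transcript clusters were called. Gsdme had 5.27, 4.76, 4.89 and 4.22 log2 intensity in R1 to R4, against 6.23, 6.16 and 6.04 in V2 to V4. All inhibitor mice were below all vehicle mice, and the log2 fold change was -1.36 ± 0.23 (SE; 95% interval -1.88 to -0.84; adjusted p of 0.0270, limma). Casp8, the initiator caspase of death receptors that can also cut interleukin-1beta, had 8.73, 8.65, 8.70 and 8.65 in R1 to R4, against 7.32, 7.67 and 8.28 in V2 to V4. The groups did not overlap, and the log2 fold change of 0.92 did not pass the test (adjusted p of 0.0605, limma). Casp8 was called in 3 of 9 alternatives that kept all arrays, with adjusted p of 0.0382 to 0.0798 over the 9, and without V4. Fadd, the adaptor of caspase-8, and Ripk3, a kinase of necroptosis, had log2 fold changes of -0.84 and -0.69 (adjusted p of 0.123 and 0.271, limma). Ripk1 was not analysed here.

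Of 12 measured IL-1 family cytokines, receptors and decoys 0 were called, beside 2.23% of all transcript clusters, with a median of -0.01. Il18bp, whose product neutralises interleukin-18, had 4.96, 4.87, 4.54 and 4.39 log2 intensity in R1 to R4, against 5.32, 5.59 and 5.82 in V2 to V4. The inhibitor mice were all below the vehicle mice, with a log2 fold change of -0.89 ± 0.19 (SE; adjusted p of 0.0520, limma). Il18r1, a chain of the interleukin-18 receptor, and Myd88, the adaptor of both cytokines' receptors, had log2 fold changes of -0.77 and -0.84 (adjusted p of 0.0532 and 0.0871, limma). Of 9 alternatives that kept all arrays, Il18bp was called lower in 4 (adjusted p of 0.0340 to 0.122) and Myd88 in 2 (0.0359 to 0.138), and both were called without R1. For Il1rn, the receptor antagonist of interleukin-1, the log2 fold change was -0.47 (adjusted p of 0.320, limma).

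Of the 15 priming receptors and their partners 2 rose and 0 fell, with a median of -0.11. Over all transcript clusters 1.06% were called higher and 2.23% in either direction. Ly96, which encodes the MD-2 protein that holds lipopolysaccharide on TLR4, had 8.67, 9.31, 9.04 and 9.41 log2 intensity in R1 to R4, against 5.97, 6.72 and 7.07 in V2 to V4. Tlr7, an endosomal receptor of single-stranded RNA, had 6.75, 7.72, 7.86 and 7.76 in R1 to R4, against 5.60, 5.33 and 5.97 in V2 to V4. Both were separated from the vehicle mice, with log2 fold changes of 2.52 ± 0.28 for Ly96 and 1.89 ± 0.28 for Tlr7 (SE; adjusted p of 0.0164 and 0.0206, limma). The tumor necrosis factor receptor gene Tnfrsf1a and the adaptor gene Tirap had log2 fold changes of -0.93 and -0.83 (adjusted p of 0.0618 and 0.141, limma).

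Of 8 measured genes of the other cytosolic DNA sensing route 0 were called, beside 2.23% of all transcript clusters, with a median of -0.41. Irf7, an interferon-induced transcription factor, had 6.59, 6.06, 5.49 and 4.20 log2 intensity in R1 to R4, against 7.95, 7.34 and 6.63 in V2 to V4, with R1 only just below V4. Its log2 fold change was -1.72 ± 0.52 (SE; adjusted p of 0.133, limma), on the other side of 0 from Aim2 and the p200 genes. Irf7 was called lower with a trended and robust variance model, with the replicate number as a block and without R1 (adjusted p of 0.0393, 0.0112 and 0.0469, limma). R1 adds nothing to the fit with the block, so the calls with the block and without R1 rest on the same arrays. Ddx41 and Zbp1, which encode nucleic acid sensors, had log2 fold changes of -0.57 and -0.42, and Tbk1, the kinase below STING, had 0.41 (adjusted p of 0.195, 0.356 and 0.398, limma). Trex1 was not analysed here.

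The genes whose profiles over the 7 arrays lay closest to the 3 inflammasome genes with the smallest p were found by the root mean square difference of mean-centred log2 values, a description with no test. For Casp1 they were Chmp3, a gene of the ESCRT-III membrane machinery, at 0.106, Gm14393 at 0.121, Mia2 at 0.123 and the p200 gene Ifi213 at 0.153. For Il1b they were the stefin genes Stfa2 at 0.248, Stfa2l1 at 0.251 and Cstdc4 at 0.321, which may share probes, and the C-type lectin gene Clec4d at 0.332. For Aim2 they were Ccdc82 at 0.317, the adhesion molecule gene Alcam at 0.421, Vcpip1 at 0.427 and the stefin-related gene Cstdc6 at 0.437.

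Markers of the cell types a CD45+CD11b+ gate can hold differed between the groups beside the inflammasome genes. The neutrophil primary granule list holds genes expressed by immature cells, among them Cebpe, Gfi1 and Ms4a3, which do not encode granule proteins. It averaged 4.95 to 6.07 log2 intensity in inhibitor mice and 6.38 to 6.79 in vehicle mice. In the limma fit 4 of its 8 genes fell (Cebpe, Mpo, Prtn3 and Fcnb). Secondary granule genes averaged 10.2 to 10.4 in inhibitor mice and 10.7 to 11.0 in vehicle mice, and 3 of 8 fell (Cd177, Itgb2l and Ltf). The ranges of these list averages did not overlap between the groups. All inhibitor arrays lay below all vehicle arrays for 5 of 8 genes of the primary list and 4 of 8 of the secondary list. This held for 7.03% of all transcript clusters. The genes not called had log2 fold changes of -1.73 (Elane) to 0.13 (Gfi1) in the primary granule list. Among secondary granule genes these ran from -0.24 (Chil3) to 0.06 (Mmp8). Over all transcript clusters 2.23% were called in either direction and 1.06% were called higher, and 260 of 22139 were called lower.

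Mature neutrophil genes averaged 8.58 to 8.98 in inhibitor mice and 8.29 to 8.79 in vehicle mice, and 1 of 9 rose (Clec4d, by 1.48). Inflammatory monocyte genes averaged 6.99 to 7.43 in inhibitor mice and 6.17 to 7.11 in vehicle mice, and 2 of 8 rose (Clec4a3, by 1.61, and Ms4a4c, by 1.35). These lists overlapped between the groups. No gene of the macrophage (9 measured), dendritic cell (8), eosinophil (5), basophil and mast cell (7), T cell (7), B cell (4), NK cell (4) or erythroid (3) lists was called. Of those lists, basophil and mast cell genes averaged 4.79 to 5.94 in inhibitor mice and 5.23 to 5.70 in vehicle mice, and eosinophil genes 2.71 to 3.85 and 3.57 to 3.76. The other lists averaged under 3, the T, B and NK cell genes between 1.53 and 2.19 in inhibitor mice and between 1.51 and 2.18 in vehicle mice. The part of these shifts in the levels of Aim2, Pycard, Casp1 and Il1b was not tested.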

How the data were processed

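RNA of sorted CD45+CD11b+ spleen cells was hybridised to Clariom S Mouse arrays after amplification with a 3' IVT Pico kit. The labels name a PicoPure kit for RNA isolation, and the study's methods another one. The deposited log2 intensities came from RMA (background correction, quantile normalization and probe summary), which the authors ran with oligo; versions and the genome build of the array annotation are not given in the sources used here. Values were compared as deposited. Quantile normalization acts before the probe summary, and the upper quartiles of the deposited arrays still ran from 3.35 (R4) to 3.68 (V4).

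Of 22203 rows, 22139 transcript clusters were tested and the other 64 were left out. The platform annotation named a single gene on 19572 rows and left 2631 unnamed, with 0 rows of several genes. Entrez IDs linked all named rows to RefSeq's GRCm38.p6 table, used for names and gene order only, and 0 symbols changed. A gene was represented by its brightest row. The fit used lmFit and eBayes of limma 3.58.1 (R 4.3.3), two-sided and without covariates, with Benjamini-Hochberg adjustment over all transcript clusters and a threshold of 0.05. Each mouse is 1 array, and labels give no batch.

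The genes and lists were chosen with earlier results of these data known. All 10 genes were named, with up to 4 genes of each pathway list by smallest p, the 4 transcript clusters most like each of the 3 inflammasome genes with the smallest p, and cell type markers. Alternatives were other variance models, array weights, other normalizations, other row sets, a replicate block and each array left out. Motifs were searched in RefSeq promoter windows of 250 bases on both strands, the NF-kB site in its degenerate form. The limma script was tested on simulated data.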

Additional observations from a re-analysis of the deposited data

Results flagged for a closer look

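Among the 49 named genes whose 4 inhibitor arrays were examined for a single far value, 1 had one. Tlr7, the endosomal receptor of single-stranded RNA, had 6.75 log2 intensity in R1, against 7.72, 7.86 and 7.76 in R2, R3 and R4, and the gap from R1 to the nearest mouse was 0.870 of the whole range of the group. R1 was still above the vehicle mice at 5.60, 5.33 and 5.97. By chance about 1 in 20 groups shows such a gap. None of the 10 inflammasome genes had such a value.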

How the results depend on the processing

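Aim2, Casp1 and Il1b were called under all 9 alternatives that kept all arrays, although R1 adds nothing in the replicate block among them. Pycard was not called with repeated quantile normalization, the trended and robust variance model or the replicate block, which left 3 of the 10 genes called, against 4 otherwise. The median log2 fold change of the 10 genes was 0.747 to 0.775 over these alternatives and 0.645 to 0.858 with 1 array left out. With 1 array left out, 0 to 4 of the 10 genes were called (4 without R1, 2 without V4 and 0 without each other array), 0 to 6 genes of the p200 list and 2 to 1035 of all transcript clusters, against 494. Nlrc4 changed sign to 0.009022 with cyclic loess, 0.0374 without R3 and 0.0240 without V4 (-0.17 to 0.037 with 1 array left out), and Nlrp1b to 0.0456 without V3 (-0.27 to 0.046); neither was called in any fit. Among the list genes with all arrays kept, Irf7, Casp8, Il18bp, Myd88, Ripk3 and Tnfrsf1a each gained a call under at least 1 alternative, and Ifi204 lost its call under the replicate block. The cause was not tested. The renormalizations moved the median of all transcript clusters by -0.0006 to 0.012. Taking the mean of several rows of a gene gave no value, since each of the 10 has 1 row.

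With the replicate number as a block (replicate block), 964 transcript clusters were called; R1 has no partner there and adds nothing. Residuals of same-numbered arrays correlated at 0.096, -0.128 and -0.032, and those of differently numbered arrays at -0.134 to 0.185. With so few arrays these values cannot show whether the numbers pair samples. The number of arrays, 4 and 3, limits the precision of all values, and Nlrp1b and Il18 came from the dim part of the arrays.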
